A study of Mus musculus with 12 samples.

Results

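The UDP-glucuronosyltransferases (UGTs) of families 2 and 3 were followed in mouse liver: Ugt2a3, Ugt2b1, Ugt2b5, Ugt2b34, Ugt2b35, Ugt2b36, Ugt3a1 and Ugt3a2. These 8 genes were chosen by name from the annotation of an Affymetrix array of the mouse genome, out of 11172 genes that a tested probe set named alone. A probe set is the group of short probes that reads 1 transcript, and where a gene had several the one with the brightest mean over the 12 arrays stood for it. The 8 genes had 10 probe sets in all, none of them annotated to a second gene, and all 8 genes passed the filter on dim probe sets and were tested. RNA came from the livers of 12 C57BL/6 mice with no transgene named, which entered the study at 8 weeks of age and were killed after 8 weeks of feeding, in a fasting state by the labels. MCD+HF+Met mice received a high fat (HF) diet that lacks methionine and choline (MCD) with 0.1% metformin mixed in, MCD+HF mice received this diet alone, and NC mice received normal chow, with 4 mice in each group and 1 array per mouse. Chow is not a matched control for the MCD+HF diet, so the effects of fat, of methionine and of choline cannot be told apart. The sex of the mice was not given in the sources used here.

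UGTs sit in the membrane of the endoplasmic reticulum and join a sugar to small fat-soluble molecules, which then leave the cell in bile or blood. Enzymes of families 1 and 2 take glucuronic acid from UDP-glucuronate and act on bilirubin, bile acids, steroid hormones and many drugs, and hepatocytes are their main site. Family 3 enzymes differ in the sugar: human UGT3A1 uses UDP-N-acetylglucosamine, and human UGT3A2 uses UDP-glucose and UDP-xylose.

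The genes lie in clusters of copies. In the RefSeq table, the order along chromosome 5 was Ugt2b34, Ugt2b1, Ugt2b35, Ugt2b36, Ugt2b5, Ugt2b37, Ugt2a3, Ugt2b38, Ugt2a1 and Ugt2a2, while Ugt3a1 and Ugt3a2 were neighbours on chromosome 15. The RefSeq promoter table had an entry for 7 of the 8 genes, all but Ugt3a2. The sequence before the start is shown for Ugt2b5, for Ugt2b36 beside it and for Ugt2b38, a relative in the same cluster, because these promoters are copies of each other in part. The 140 bases upstream of the start site are given 5′ to 3′ (RefSeq, GRCm38.p6), with capitals in Ugt2b36 and Ugt2b38 marking the bases that differ from Ugt2b5, or have no counterpart in it, when the promoters are aligned from end to end. The windows are chr5:87140341-87140480 for Ugt2b5, chr5:87092556-87092695 for Ugt2b36 and chr5:87424204-87424343 for Ugt2b38, all on the minus strand.
Ugt2b5: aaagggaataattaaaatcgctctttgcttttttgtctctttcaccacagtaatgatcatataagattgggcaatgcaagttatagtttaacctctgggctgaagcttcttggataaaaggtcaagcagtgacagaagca
Ugt2b36: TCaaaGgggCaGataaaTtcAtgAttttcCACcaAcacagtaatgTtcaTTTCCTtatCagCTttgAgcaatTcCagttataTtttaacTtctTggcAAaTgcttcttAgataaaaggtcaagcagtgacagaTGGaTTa
Ugt2b38: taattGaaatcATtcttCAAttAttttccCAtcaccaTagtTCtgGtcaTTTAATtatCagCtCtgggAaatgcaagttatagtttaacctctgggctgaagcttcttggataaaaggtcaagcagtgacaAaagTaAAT
Of these 140 bases, 37 are marked in Ugt2b36 and 28 in Ugt2b38. Over the 250 bases upstream, Ugt2b5 and Ugt2b38 were identical at 81.5% of alignment columns, Ugt2b5 and Ugt2b36 at 59.3%, and Ugt2b1 and Ugt3a1 at 43.8%. Short motifs were searched in these 250 bases on both strands, in the 7 promoters and in all 32851 windows of the same length. TTCNNNGAA, the STAT5 motif, was in 0 of the 7 promoters and 7.02% of all windows, CAAAGTCCA, an HNF4 motif, in 0 of the 7 and 0.384%, CCAAT in 2 of the 7 and 33.8%, and TATAAA in 1 of the 7 and 12.4%. Because the promoters share sequence, matches in them are not independent of each other. No other motif was searched, so nothing is said about sites of other factors. Only exact matches were counted, and at a share of 0.384% the HNF4 result of 0 of 7 could hardly have differed.

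In MCD+HF livers all 8 genes were lower than in NC livers with the signals as deposited, between 5.73-fold for Ugt2b1 and 1.26-fold for Ugt2b34, and 6 of them were also lower with another scaling of the arrays, the exceptions being Ugt2b34 and Ugt2b35. As deposited, 8 of 8 passed the test as lower (limma, adjusted p under 0.05), against 18.4% of the 22832 probe sets tested. Their median change was -1.43 on the log2 scale, against 0.06 over all probe sets. In these units a change is the difference of mean log2(signal + 10), and the offset slightly understates changes at low signal. Signals are linear array units that the authors scaled to an average of 100 per array. The 4 MCD+HF and the 4 NC mice did not overlap in any of the 8 genes, against 17.6% of probe sets that were lower with no overlap. A fall in bulk liver RNA can come from fewer cells of a type or from less RNA per cell, and these cannot be told apart here.

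Bright probe sets fell as a class, and 5 of the 8 genes are among them. Of the 791 probe sets whose mean signal reached 2000, 60.3% were lower in MCD+HF livers and 10.7% higher, with a median change of -0.39, whereas 13.8% of the 16317 probe sets between 20 and 200 were lower. The highest signal on an array was 11539 to 13694.5 in MCD+HF+Met livers, 9467 to 11830.0 in MCD+HF livers and 19413 to 23472.5 in NC livers. With quantile normalization, which gives every array the same distribution of signals, the median of the bright class moved to 0.07, and 27.6% of it was lower and 38.9% higher. Under that scaling 6 of the 8 genes stayed called lower, against 4993 of the 22832 probe sets tested. Ugt2b34 and Ugt2b35 were lost. Whether the fall of bright signals arose in the liver or on the array was not tested. The ratio of 3′ to 5′ signal of Actb, a measure of RNA integrity, was 1.73 ± 0.114 in MCD+HF+Met livers, 1.54 ± 0.0694 in MCD+HF livers and 1.73 ± 0.140 in NC livers (SD, n = 4 each), and no 2 arrays held identical values.

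Ugt2b1 is a liver enzyme whose rat counterpart conjugates morphine and bisphenol A. Its signal was 1601, 2022, 1388 and 2036 in MCD+HF+Met livers, 1099, 934, 1697 and 1344 in MCD+HF livers, and 7204, 7336, 7520.1 and 6531 in NC livers. The highest MCD+HF mouse, at 1697, was far below the lowest NC mouse, and the 2 groups on the diet overlapped. With the diet alone it fell by 2.52 on the log2 scale (SE 0.16, 95% interval -2.86 to -2.18, limma adjusted p = 7.5e-09), which placed it 99th of 22832 from the largest fall. Quantile normalization gave a change of -2.13. Its spread between mice was wide on the diet, with a coefficient of variation of 26.2% in MCD+HF livers and 6.03% in NC livers.

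Ugt2a3 belongs to the 2A branch, whose human counterpart conjugates bile acids. The MCD+HF+Met livers gave 588.0, 767, 629 and 710.2, the MCD+HF livers 454, 485, 908 and 609.8, and the NC livers 2221, 2409.6, 2087 and 2473. Replicate 3 of MCD+HF stood highest of the 8 mice on the diet, at less than the lowest NC value. Ugt2a3 fell by 1.94 in MCD+HF against NC (SE 0.17, adjusted p = 2.1e-07), a 3.83-fold difference, and its coefficient of variation was 33.7% in MCD+HF livers and 7.67% in NC livers.

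Ugt2b36, the main morphine-conjugating form among mouse Ugt2b enzymes, had signals of 2709, 3673, 3009 and 2652 in MCD+HF+Met livers, 2653, 2544, 2911 and 2907 in MCD+HF livers, and 7605, 8217, 8055 and 8172 in NC livers. All 8 mice on the diet lay at 3673 or below and all 4 NC mice at 7605 or above. The change was -1.54 in MCD+HF against NC (SE 0.098, adjusted p = 8.0e-09), or 2.91-fold lower, and it was -1.04 with quantile normalization.

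Ugt2b5 lies next to Ugt2b36 on the chromosome. MCD+HF+Met livers had 3679, 4279, 4011 and 3708, MCD+HF livers 4139.7, 3967, 4991 and 4382, and NC livers 9479.8, 10412, 9986 and 9400.3. Both diet groups were far below NC and overlapped each other. Ugt2b5 fell by 1.17 (SE 0.085, adjusted p = 3.8e-08), a 2.25-fold difference. Its mean signal of 6036 lies in the bright class, and of the 6 genes that stayed called it moved most with the scaling, with a change of -0.54 under quantile normalization (adjusted p = 5.0e-05).

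Ugt2b35 and Ugt2b34 moved least, although Ugt2b1, which moved most, lies between them on chromosome 5. For Ugt2b35 the signals were 2164, 2549.5, 1931 and 1867 in MCD+HF+Met livers, 2429.9, 2521, 2425 and 3011 in MCD+HF livers, and 4351, 3796, 3900.3 and 3513 in NC livers. NC was highest without overlap, and MCD+HF was 1.5-fold lower (change -0.58, SE 0.11, adjusted p = 4.3e-04). With quantile normalization the change was -0.22 and the call was lost (adjusted p = 0.113).

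Ugt2b34 was read by 2 probe sets that differed. The brighter one (of a type whose probes may match more than 1 transcript) gave 2805, 2778, 2439 and 2721 in MCD+HF+Met livers, 2817, 2907, 2748 and 3281 in MCD+HF livers, and 3698, 3985, 3673 and 3408 in NC livers. It was 1.26-fold lower in MCD+HF than in NC (change -0.33, SE 0.083, adjusted p = 0.00468), with a gap between the groups. The other probe set averaged 2395 ± 408 in MCD+HF+Met livers, 2796 ± 407 in MCD+HF livers and 2595 ± 128 in NC livers (SD, n = 4 each), a change of 0.10 with the diet (SE 0.12, adjusted p = 0.551). The log2 ratio of the first probe set to the other was 0.08 ± 0.10 in MCD+HF livers and 0.51 ± 0.05 in NC livers (exact two-sided permutation test, p = 0.0286, the smallest possible with 4 against 4, and 0.114 after Benjamini-Hochberg adjustment over 6 such tests). With quantile normalization the first probe set changed by 0.030 (adjusted p = 0.786) and the other by 0.45 (adjusted p = 0.00636), so no direction holds for Ugt2b34 under both scalings.

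Ugt3a2 lies beside Ugt3a1 on chromosome 15. Its signals were 1183, 1021, 763 and 776 in MCD+HF+Met livers, 964, 1052, 1341 and 1291 in MCD+HF livers, and 3046, 3355, 3135 and 3334 in NC livers. The 8 mice on the diet reached at most 1341, and the NC mice started at 3046. Its change in MCD+HF against NC was -1.47 (SE 0.14, adjusted p = 4.9e-07), or 2.78-fold lower, and -1.19 with quantile normalization.

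Ugt3a1, its neighbour, had 232, 253, 265 and 131 in MCD+HF+Met livers, 271, 218, 275 and 207 in MCD+HF livers, and 597, 734, 603 and 678 in NC livers. The change was -1.40 (SE 0.18, adjusted p = 1.2e-05), 2.63-fold lower, with no overlap. A second probe set averaged 247 ± 45.7 in MCD+HF+Met livers, 253 ± 28.4 in MCD+HF livers and 576 ± 30.7 in NC livers (SD, n = 4 each), a change of -1.16 (limma adjusted p = 3.0e-06). It is of the type whose probes may match more than 1 transcript. The mean signal of the first probe set, 372, lies below the bright class, and quantile normalization left its change at -1.42. For the second probe set that scaling gave -1.20.

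**Figure D1:**
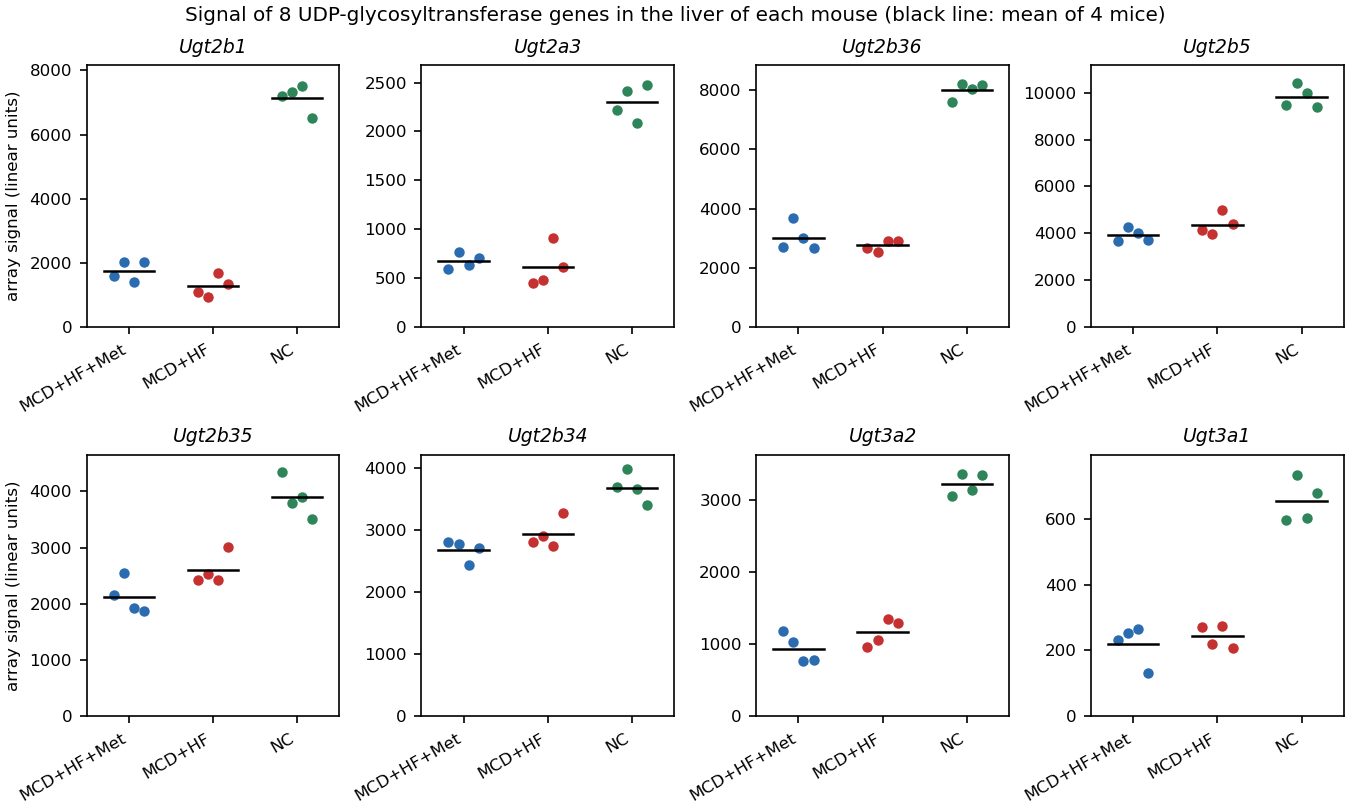
Signal (linear array units) of the 8 genes in each mouse, with MCD+HF+Met, MCD+HF and NC from left to right and a black line at the mean of the 4 mice. In every panel the 4 NC points lie above all 8 points of the diet groups, with the narrowest gap in Ugt2b34 (NC from 3408, MCD+HF up to 3281).

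With metformin added to the diet, none of the 8 genes passed the test: 0 of 8 were called in MCD+HF+Met against MCD+HF (limma), against 3.44% of all probe sets. At an unadjusted p under 0.05, 1 gene was higher and 2 were lower, against 8.3% and 10.7% of all probe sets, and the methods' t-test called 0 after adjustment. The changes had both signs, with 3 above 0 and 5 below, and a median of -0.14 against -0.02 over all probe sets. The ranges of the 2 groups overlapped in all 8 genes, where 11.8% of all probe sets had none.

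Ugt2b1 had the highest change. It averaged 1762 ± 320 in MCD+HF+Met livers and 1268 ± 332 in MCD+HF livers (SD, n = 4 each), a change of 0.49 (SE 0.16, 95% interval 0.15 to 0.82, unadjusted p = 0.00736, adjusted p = 0.102). Replicate 3 of MCD+HF decided the call: without it the change was 0.64 (SE 0.14) and the adjusted p was 0.0304, the lowest of a range that ran to 0.330 over the other settings. That mouse had the highest signal of its group for 6 of the 8 genes and the lowest for the other 2, Ugt2b34 and Ugt2b35.

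Ugt2b35 and Ugt3a2 leaned the other way. Ugt2b35 averaged 2128 ± 309 in MCD+HF+Met livers and 2597 ± 280 in MCD+HF livers (change -0.29, 95% interval -0.52 to -0.06, adjusted p = 0.153). Ugt3a2 averaged 936 ± 203 in MCD+HF+Met livers and 1162 ± 183 in MCD+HF livers (change -0.32, 95% interval -0.61 to -0.03, adjusted p = 0.218). For the remaining 5 genes the intervals included 0: -0.18 to 0.53 for Ugt2a3, -0.09 to 0.33 for Ugt2b36, -0.34 to 0.03 for Ugt2b5, -0.31 to 0.05 for Ugt2b34 and -0.55 to 0.21 for Ugt3a1.

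**Figure D2:**
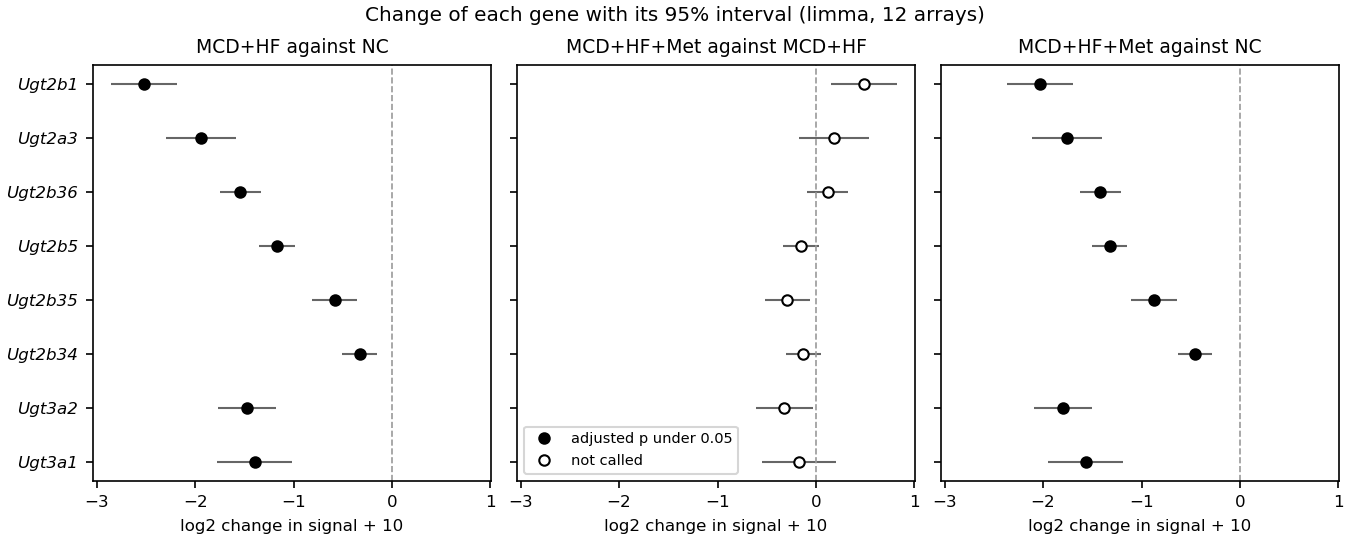
Log2 change of signal + 10 for each gene with its 95% interval from limma over 12 arrays, in MCD+HF against NC, MCD+HF+Met against MCD+HF, and MCD+HF+Met against NC; filled points have an adjusted p under 0.05. All 8 points are filled and below 0 in both comparisons with NC (with quantile normalization Ugt2b34 is not called in either and Ugt2b35 not in the first), and all 8 are open with metformin, where Ugt2b1 at 0.49 lies highest and Ugt3a2 at -0.32 lowest.

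MCD+HF+Met livers also lay below NC, in 8 of 8 genes as deposited (limma, adjusted p under 0.05), against 17.5% of probe sets called lower. Again no gene overlapped, against 15.7% of probe sets lower with no overlap. With quantile normalization 7 of the 8 genes were called lower, against 4279 of the 22832 probe sets. This comparison shares its MCD+HF+Met arrays with the one above and its NC arrays with the diet comparison. The changes were -2.03 for Ugt2b1, -1.79 for Ugt3a2, -1.76 for Ugt2a3, -1.57 for Ugt3a1, -1.42 for Ugt2b36, -1.32 for Ugt2b5, -0.87 for Ugt2b35 and -0.46 for Ugt2b34, with a median of -1.49 against 0.03 over all probe sets. The gene lost with quantile normalization was Ugt2b34 (-0.16, adjusted p = 0.132), and Ugt2b35 stayed called at -0.59. In the probe set that represents each gene, as deposited, NC was the highest level and the 2 diet groups were neighbours that did not differ past the threshold. In the other Ugt2b34 probe set the order was not the same, with 2394.6 in MCD+HF+Met livers, 2796 in MCD+HF livers and 2595 in NC livers on average.

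The relatives measured beside the 8 genes spanned a wider range. Ugt2b38, whose promoter is shown above, had 10.5, 10.1, 6.9 and 16.2 in MCD+HF+Met livers, 10.5, 8.0, 10.6 and 11.9 in MCD+HF livers, and 422.0, 483, 371 and 265 in NC livers. That change of -4.26 with the diet (SE 0.18, limma adjusted p = 1.2e-10) was the 24th largest fall of 22832. Since the diet values are near the offset of 10, it understates the ratio of signals. Only its NC signals took Ugt2b38 past the filter, so its call as lower was in part fixed by the filter. Ugt2b37 averaged 24.1 ± 3.39 in MCD+HF+Met livers, 24.5 ± 9.56 in MCD+HF livers and 95.8 ± 69.3 in NC livers (SD, n = 4 each; change -1.43 with the diet, adjusted p = 0.00286), and its lowest NC mouse, at 35.4, was below the highest MCD+HF mouse, at 37.8.

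Family 1 could be read only as a whole. Each of 3 probe sets named 8 Ugt1a genes, which share their last exons, and the brightest averaged 6337 ± 359 in MCD+HF+Met livers, 6474 ± 488 in MCD+HF livers and 10744 ± 699 in NC livers (SD, n = 4 each). Their changes with the diet were -0.73, -0.59 and -0.50 (limma, adjusted p of 2.3e-06, 2.4e-05 and 2.0e-04), but with quantile normalization they were 0.05, -0.10 and -0.04 and none was called, so no direction is given. Ugt8a, which makes galactosylceramide, a lipid of myelin, was higher with the diet: 53.0 ± 16.7 in MCD+HF+Met livers, 68.2 ± 16.1 in MCD+HF livers and 5.78 ± 4.11 in NC livers (change 2.32 with the diet, adjusted p = 1.6e-06, and 2.28 with quantile normalization). With NC below the offset of 10, this probe set passed the filter through the diet groups. A second Ugt8a probe set failed the filter, with means of 9.825 in MCD+HF+Met, 20.7 in MCD+HF and 5.0 in NC livers. The probe set shared by Ugt2a1 and Ugt2a2 had a mean signal under 20 and was not tested. As deposited, none of these passed the test with metformin (limma adjusted p of 0.948 for Ugt2b38, 0.987 for Ugt2b37, 0.885 for the brightest Ugt1a probe set and 0.487 for Ugt8a). Ugt2b38 passed the filter through its NC signals. It averaged 10.9 in MCD+HF+Met and 10.25 in MCD+HF livers, near the offset of 10, so a fall with metformin could not have been seen. Ugt2b37 was also dim on the diet, at 24.1 and 24.5. With quantile normalization that Ugt1a probe set was called lower with metformin (-0.20, adjusted p = 0.0341).

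**Figure D3:**
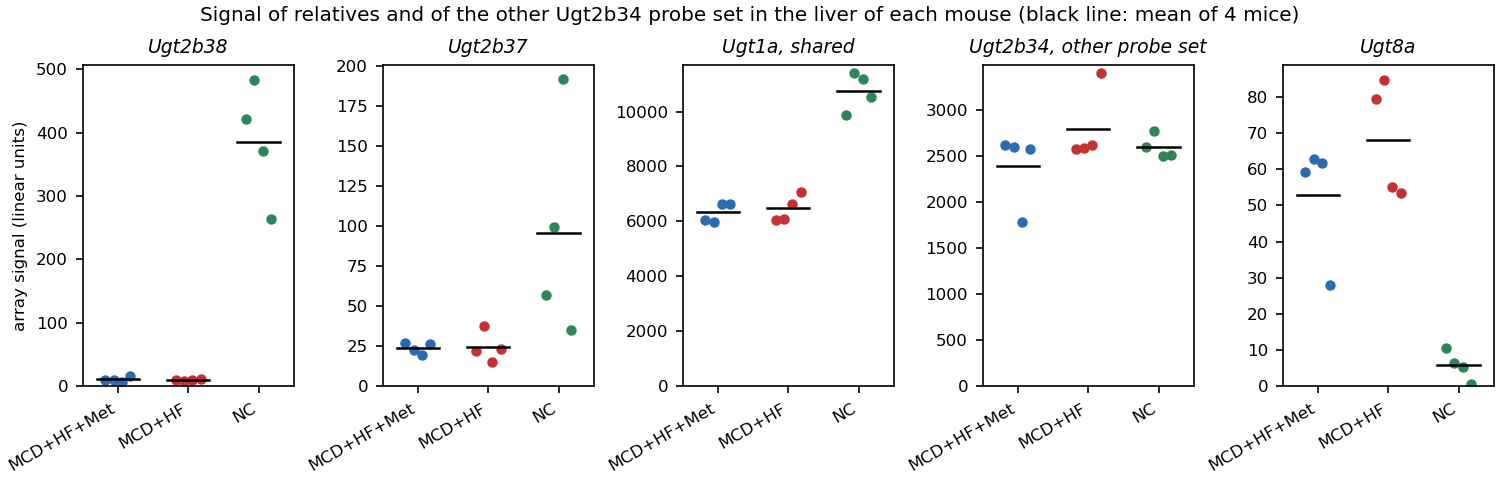
Signal (linear array units) of Ugt2b38, Ugt2b37, the brightest shared Ugt1a probe set, the other Ugt2b34 probe set and Ugt8a in each mouse, with MCD+HF+Met, MCD+HF and NC from left to right and a black line at the mean of the 4 mice. Ugt2b38 is at 16.2 or below in all 8 mice on the diet and at 265 or above in NC, the other Ugt2b34 probe set overlaps across all 3 groups, and Ugt8a runs the opposite way.

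Genes around the supply of the sugar were mixed. The list holds 8 genes around UDP-glucuronate, not all of which supply it. Of these, 1 was higher and 3 were lower in MCD+HF than in NC (limma, 25.4% and 18.4% of all probe sets), with a median of -0.14. Ugdh, which makes UDP-glucuronate, changed by 0.24 (adjusted p = 0.208), Ugp2, which makes its precursor UDP-glucose, by -0.28 (adjusted p = 0.0402), and Slc35d1, which brings UDP-glucuronate into the endoplasmic reticulum, by 0.37 (adjusted p = 0.0538). Scaling altered these calls: with quantile normalization Ugdh (0.49, adjusted p = 0.00669) and Slc35d1 (0.44, adjusted p = 0.0247) were higher and Ugp2 (0.09) was not called. Pgm2, a phosphoglucomutase, was higher at 1.21, and Slc35d2, a Golgi nucleotide sugar transporter, was lower at -0.70.

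Hydrolysis and export of glucuronides ran mostly upward. In MCD+HF livers 4 of 5 genes were higher than in NC and 0 lower, with and without quantile normalization. Of all probe sets 25.4% were higher and 18.4% lower as deposited, and the median of the 5 genes was 0.48. Abcc4, an exporter of conjugates into blood, averaged 314.0 ± 46.6 in MCD+HF+Met livers, 587 ± 199 in MCD+HF livers and 41.3 ± 9.85 in NC livers (SD, n = 4 each), a rise of 3.50 with the diet (adjusted p = 2.8e-09) and a fall with metformin (-0.83, adjusted p = 0.0327). Gusb, the lysosomal enzyme that splits glucuronides, rose by 0.91 (adjusted p = 2.0e-05), and the canalicular exporters Abcg2 and Abcc2 rose by 0.48 and 0.34. Abcc3, which exports glucuronides into blood, changed by -0.32 (adjusted p = 0.216). Macrophages also hold Gusb, and 8 of 10 macrophage markers were higher with the diet (median 1.82), whose part in the rise of Gusb was not tested.

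Glucuronate also feeds the synthesis of vitamin C in mice. Of 4 such genes, Rgn, which makes the lactone on that route, fell by 1.60 in MCD+HF livers (adjusted p = 7.1e-08), and Gulo, the last enzyme, changed by 0.13 (adjusted p = 0.349), but was called higher with quantile normalization (0.36, adjusted p = 0.0168). Miox, which opens the ring of inositol to give glucuronate, was higher at 0.65 (adjusted p = 0.0364), and was not called with quantile normalization (0.60, adjusted p = 0.0578). Akr1a1, an earlier reductase, was lower at -0.36 but higher at 0.38 with quantile normalization, so it is given no direction. None of the 4 passed the test with metformin, against 3.44% of all probe sets, and Gulo was higher in MCD+HF+Met than in NC (0.48, adjusted p = 0.00170).

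Among the transcription factors known to act on Ugt promoters, 9 of 14 tested were lower in MCD+HF than in NC and 2 were higher. The shares of all probe sets were 18.4% and 25.4%, and the median of the 14 was -0.51. Quantile normalization gave 9 lower and 1 higher, against 4993 and 5248 of the 22832 probe sets. The 9 lower were not the same. Ppara lost its call (-0.54 as deposited, -0.21 with adjusted p = 0.260 after it) and Stat5b gained one (-0.26 as deposited, -0.38 with adjusted p = 0.0150 after it). Cebpa fell by 1.06 (adjusted p = 0.00192), Foxa2 by 0.97 (adjusted p = 0.00306), Hnf4a by 0.84 (adjusted p = 1.7e-05) and Foxa3 by 0.75 (adjusted p = 0.00692), all of them regulators of hepatocyte genes. The drug sensor Nr1i2 (PXR) rose by 0.59 (adjusted p = 0.0301, and 0.0708 with quantile normalization), Nfe2l2 (Nrf2), the regulator of the antioxidant response, rose by 0.42 (adjusted p = 0.00315), and Nr1i3 (CAR) changed by -0.09 (adjusted p = 0.739). With metformin 0 of the 14 passed the test, against 3.44% of all probe sets.

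**Figure D4:**
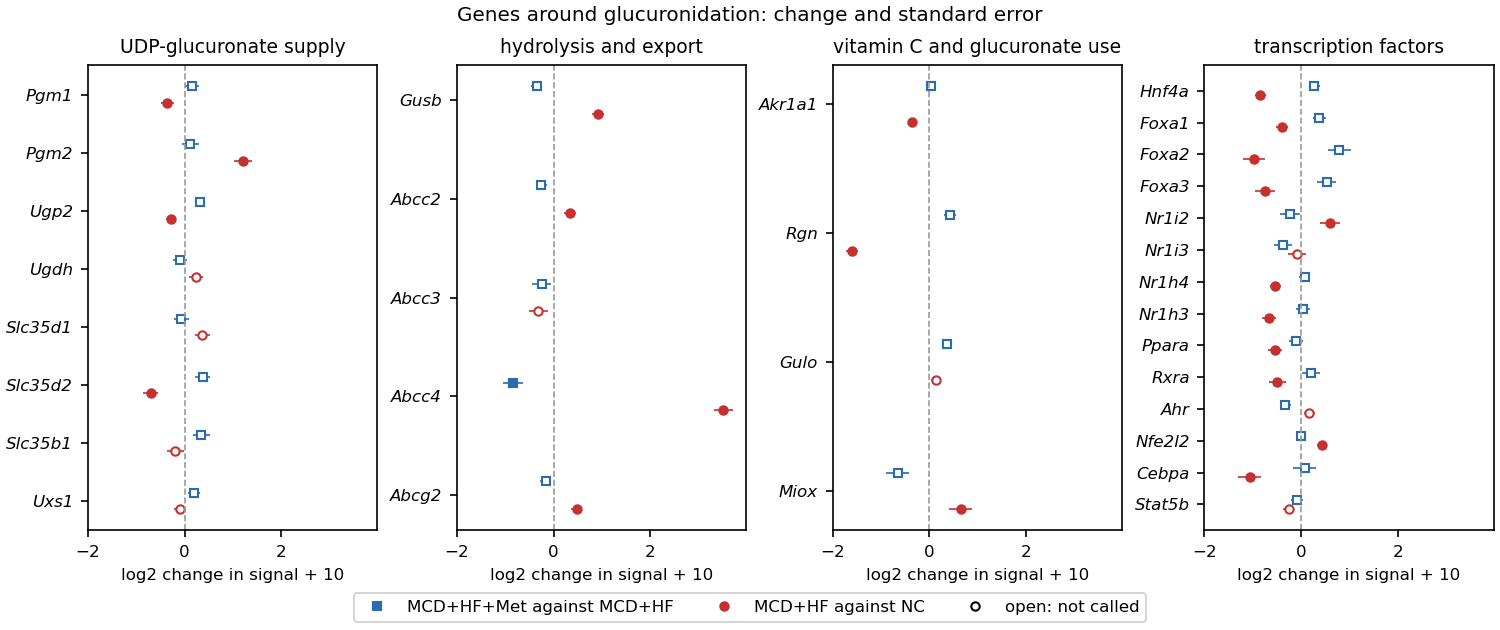
Log2 change of signal + 10, with its standard error, for genes around UDP-glucuronate supply, hydrolysis and export, vitamin C and glucuronate use, and transcription factors. Not all genes of the supply panel supply UDP-glucuronate. Blue squares are MCD+HF+Met against MCD+HF, red circles are MCD+HF against NC, and open marks were not called. Most transcription factors lie left of 0 with the diet (Cebpa at -1.06), Abcc4 lies far right at 3.50, and it is the only filled square.

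Genes that make or break down steroids, bile acids and bilirubin, which UGTs conjugate, were split. Of 8 tested, 3 were higher and 4 lower with the diet, against 25.4% and 18.4% of all probe sets. Hmox1, the first step from heme to bilirubin, rose by 2.11 in MCD+HF livers (adjusted p = 5.1e-08) and fell by 0.75 with metformin (adjusted p = 0.0179), and the biliverdin reductases Blvra and Blvrb rose by 0.53 and 0.47 with the diet. Blvra fell by 0.55 with metformin (adjusted p = 0.0473, and 0.0571 with quantile normalization). Hsd3b5, a steroid enzyme of male mouse liver, averaged 7.67 ± 5.07 in MCD+HF+Met livers, 10.4 ± 5.66 in MCD+HF livers and 2895 ± 379 in NC livers (SD, n = 4 each), and Hsd17b2, another steroid enzyme, fell by 1.90 (adjusted p = 2.0e-08). Akr1c6 fell by 1.25 as deposited and by 0.64 with quantile normalization, and Cyp3a11 fell by 0.92 as deposited and changed by 0.08 with quantile normalization, where it was not called.

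Other cell types moved with the diet too. Of 10 hepatocyte markers 9 were lower in MCD+HF livers (median -0.97, Alb -1.02, Apoa1 -1.02, Fgb -1.45), but these are among the brightest probe sets, and with quantile normalization 3 were lower and 2 higher (median 0.01), so their direction depends on the scaling. Their summed signal was 71548 to 91212 in MCD+HF+Met livers, 63611 to 80663 in MCD+HF livers and 123267 to 143508 in NC livers, and none was near 0. Markers of macrophages were higher in 8 of 10 (median 1.82), of stellate cells in 9 of 10 (1.78) and of cholangiocytes in 5 of 5 (2.07). Leukocyte markers were higher in 5 of 5 tested (1.66), while Cd3e, Cd3g and Cd79a failed the filter. These counts were the same under quantile normalization, and endothelial markers had 1 higher and 2 lower of 6. Of all probe sets, 25.4% were called higher and 18.4% lower as deposited, and 5248 and 4993 of 22832 with quantile normalization. The 1 macrophage marker that was lower was Clec4f, a marker of Kupffer cells (-1.36, adjusted p = 7.7e-04, and lower with quantile normalization also). Summed macrophage markers ran over 3787 to 5346 in MCD+HF+Met livers, 7927 to 13508 in MCD+HF livers and 3234 to 4346 in NC livers, stellate markers over 4481 to 6636 in MCD+HF+Met livers, 6469.7 to 8635 in MCD+HF livers and 1749.8 to 2266 in NC livers, and cholangiocyte markers over 219 to 499.7, 343 to 490.3 and 23.8 to 81.1 in MCD+HF+Met, MCD+HF and NC livers. With metformin 7 of the 10 macrophage markers were lower, against 3.44% of all probe sets called in either direction. In NC livers 2 of the macrophage, 2 of the stellate and 5 of the cholangiocyte markers averaged under a signal of 20. Markers this low in NC livers passed the filter through the diet groups, so their calls as higher were in part fixed by it. The part of these cells in the fall of the UGTs was not tested.

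Over the mice the 8 genes differed in the size of their changes. The measure used was the root mean square difference over the 12 arrays between log2 values. Each gene was set relative to its own mean, so that 0 means the same course by the same amount. Genes that move together by different amounts therefore also lie apart. The root mean square of a gene about its own mean was 1.12 for Ugt2b1 and 0.211 for Ugt2b34. Ugt2b5 and Ugt2b36, near neighbours on the chromosome, were closest at 0.174, then Ugt2b34 and Ugt2b35 at 0.203, and Ugt2b1 and Ugt2b34 farthest at 0.949. Closeness did not always go with position: the neighbours Ugt3a1 and Ugt3a2 lay at 0.290, and Ugt3a1 and Ugt2b36, on different chromosomes, at 0.249. All these distances use the signals as deposited. Outside the family, over 11088 genes, the nearest to Ugt2b1 was Slc27a5 (0.164), an enzyme that activates bile acids for conjugation, the nearest to Ugt2b36 was Baat (0.108), which joins bile acids to amino acids, and the nearest to Ugt3a2 was Acsm1 (0.126), a medium-chain acyl-CoA synthetase. Ugt2a3 was nearest to Aldh7a1 (0.174) and then Uox (0.190), which breaks down urate. Ugt2b5 was nearest to Gjb1 (0.0911), a gap junction protein of hepatocytes, Ugt3a1 to Igfals (0.210), a carrier protein of insulin-like growth factors, Ugt2b35 to Cela1 (0.117) and Ugt2b34 to Trpt1 (0.0788). Small values are easier to reach for genes that varied little, such as Ugt2b34.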

How the data were processed

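Liver RNA of 12 mice was hybridised by the authors to Affymetrix arrays, 1 per mouse. Signal intensities per probe set were made by the authors with GCOS and scaled to an average of 100 per array, and the deposited table gives these linear values for 45101 probe sets, of which 64 are controls and were left out here. Leaving out 2% in each tail, the mean of every array was 100. Detection calls were not used here, and the number of arrays limits the precision.

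Groups came from the labels. log2(signal + 10) was computed with no further normalization, and the 22832 probe sets averaging 20 or more over the arrays were fitted in a single model of the 3 groups by lmFit and eBayes with trend (limma 3.58.1, R 4.3.3, two-sided, 9 residual degrees of freedom), with Benjamini-Hochberg adjustment over all of them and a threshold of 0.05. limma was checked on simulated data. The methods' t-test is Student's test on the same values, and the methods' fold and p thresholds are a 1.5-fold difference and an unadjusted p under 0.05, used here without the GCOS change calls that the methods require first. Symbols came from the platform annotation, updated through gene identifiers. Motifs were searched in RefSeq promoters.

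The 8 genes, the lists and the tests were chosen with earlier results of these data known. All 8 genes are described. From a list, up to 4 called genes per direction are named, with Ugdh, Ugp2, Slc35d1, Gulo, Gusb, Abcc2, Abcc3, Hnf4a, Nr1i2 and Nr1i3, and markers are given by counts. Alternatives were offsets of 1 and 32, no filter, a filter at 50, a robust variance, quantile normalization, only the groups compared, a block for the replicate number, the methods' t-test, each array left out in turn and other probe sets. The fold and p thresholds, and quantile normalization of the lists and relatives, were added after seeing the data, and Ppara, Stat5b and Clec4f were named after their values were seen. Figures were drawn with matplotlib 3.10.9.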

Additional observations from a re-analysis of the deposited data

Results flagged for a closer look

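In MCD+HF livers, replicate 4 stood apart for Ugt2b35, at a signal of 3010.9 against 2425 to 2521 in the other 3 mice. The gap was 0.836 of the group's range, above the critical value of Dixon's test for 4 samples. It was the only such value among 24 groups of 4 signals (8 genes in 3 groups), and chance gives about 1 in 20.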

How the results depend on the processing

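Of the diet's changes in the 8 genes, 135 values kept direction and call, 1 lost its call and 2 changed sign; for metformin 136 did so, 1 gained a call and 1 changed sign; for MCD+HF+Met against NC 136 did so and 2 lost their call. Ugt2b34 changed sign with the diet under quantile normalization (0.030, adjusted p = 0.786) and in its other probe set (0.10, adjusted p = 0.551), and lost its call against NC in MCD+HF+Met livers (-0.16, adjusted p = 0.132, and -0.13, adjusted p = 0.424). Ugt2b35 lost its call with the diet under quantile normalization (-0.22, adjusted p = 0.113). That scaling equalises the bright end of all arrays by construction. Ugt3a1 ran between -0.27 and 0.048 with metformin when single arrays were left out, the positive value being without MCD+HF+Met replicate 4 (adjusted p = 0.882). With metformin between 0 and 1 of the 8 genes were called when arrays were left out, the 1 being Ugt2b1 without MCD+HF replicate 3; the cause was not tested. The methods' fold and p thresholds, without their change calls, called 6 of 8 with the diet (Ugt2b34 and, narrowly, Ugt2b35 fell short of 1.5-fold), 0 of 8 with metformin and 7 of 8 in MCD+HF+Met against NC. The replicate block gave 8, 0 and 8 calls for the diet, for metformin and for MCD+HF+Met against NC, as without it. Same-numbered mice correlated between -0.134 and 0.251 in their deviations. Correlations of differently numbered mice were not computed, so these values cannot show whether the numbers pair the mice. With 4 arrays per group and 1 signal per probe set, differences near the offset of 10 are the least reliable.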
